A study of Mus musculus with 9 samples.

Results

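The transcription factor NRF2 (gene *Nfe2l2*), its inhibitor KEAP1 and a set of the antioxidant genes that NRF2 controls were followed in KLN205 tumors with and without knockdown of the transmembrane serine protease *Tmprss11b*. The genes were fixed by symbol and not by their values, though with earlier results of these data known. They were *Nfe2l2*, *Keap1*, *Nqo1*, *Gclc*, *Gclm*, *Txnrd1*, *Srxn1*, *Slc7a11*, *Hmox1* and *G6pdx*. All 10 were found among the 19481 genes of the count table, and all 10 passed the filter on low counts. KLN205, a mouse lung squamous cell carcinoma (LUSC) line, carried a SMART doxycycline-inducible shRNA and was grown under the skin of the flank of immunocompetent DBA/2 WT mice. All 3 groups received doxycycline, given in the drinking water once the mean tumor volume over the groups had reached 100 mm3: the control shRNA, *Tmprss11b* sh2 and *Tmprss11b* sh3, with 3 tumors in each. The mice were young adult females, and the labels name 1 construct per group, so that a shRNA and the cells that carry it cannot be told apart. The labels call the tumors biological replicates, each the RNA of a piece of tumor, so the P values measure the spread between tumors.

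In an unstressed cell KEAP1 holds NRF2 and passes it to the CUL3 ubiquitin ligase for destruction. Oxidants or electrophiles modify KEAP1, and NRF2 then accumulates, pairs with a small MAF protein and binds antioxidant response elements in the promoters of genes for glutathione synthesis, the thioredoxin system, NADPH supply and detoxification. Because this control acts mainly on the NRF2 protein, the transcripts of its targets are commonly read as its output. Mutations of *NFE2L2*, *KEAP1* or *CUL3* that keep the pathway on are frequent in human LUSC.

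None of the 10 genes passed the threshold, an FDR under 0.05 in edgeR's quasi-likelihood test, with either shRNA. The share of all 14725 genes tested that passed it was 0.0% with each. The glutathione synthesis genes *Gclc* and *Gclm* and the *Nfe2l2* transcript lay higher in every sh2 tumor than in every control tumor. Of all genes tested, 5.56% did so. Their log2 fold changes were 0.64, 0.19 and 0.34, and that of *Gclc* fell to 0.24 without sh2 tumor 2. *Keap1* lay lower in every sh2 tumor than in every control tumor, as did 5.83% of all genes. With sh3 these genes overlapped the controls. The quinone reductase gene *Nqo1*, a widely used NRF2 reporter, was barely expressed in any tumor and had the lowest fitted value of the set, a log2 fold change of −1.04 with sh3.

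The counts came from 20653219 to 24047784 reads on genes per tumor. CPM is the count of a gene relative to its library, scaled here by edgeR's TMM factors, and TPM also divides by transcript length. At this depth 3 counts correspond to 0.125 to 0.145 CPM, a floor for counting error only. *Tmprss11b* was listed under its older symbol *Tmprss11bnl*. It had 18, 51 and 42 counts in the controls, 7, 2 and 5 with sh2 and 10, 4 and 5 with sh3. Its log2 fold changes were −2.89 with sh2 and −2.36 with sh3 (FDR = 0.999 and 0.753, edgeR). The knockdown target itself thus did not pass the threshold, and neither did any other gene in this test. Its unadjusted P was 0.000878 with sh2 and 0.00261 with sh3 (edgeR). All 6 shRNA tumors lay below all controls, as they did for 0.958% of all genes. Of the markers of the labelled squamous type, *Sox2*, *Krt14* and *Krt6a* were present in all tumors, whereas *Trp63* averaged 0.977 TPM, *Dsg3* averaged 1.24 TPM and *Krt5* reached 87.4 CPM in control tumor 1 and at most 5.02 CPM in the other tumors. Control tumors 1 (keratins) and 3 (skeletal muscle transcripts), sh2 tumor 2 (epithelial transcripts) and sh3 tumor 1 (few macrophage and squamous transcripts) stood apart. A bulk tumor holds carcinoma and host RNA, and fewer cells of a type and less RNA per cell cannot be told apart.

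Promoter sequences were available from RefSeq (GRCm38.p6) for 8 of the 10 genes, not for *Gclc* and *Hmox1*, with 3 start sites for *Txnrd1*. Each window ran from 250 bases before the start site to 50 bases after it, and both strands were searched for the core of the antioxidant response element, TGACNNNGC, and for the related AP-1 element, TGANTCA. The element core was matched in the windows of *Nfe2l2*, *Gclm*, *Srxn1* and *G6pdx* and in 1 of the 3 of *Txnrd1*. Of all 32851 promoters of this length, 12.4% held a match. The AP-1 letters were matched 2 times in *Srxn1* and in no other of these windows, without overlap with the element core, and in 7.81% of all promoters. The 250 upstream bases are shown for *Gclm* and *G6pdx*, whose levels had one of the stronger correlations across the tumors, and for *Nqo1*, the member with the lowest level. Capitals mark the match to the element core on the reverse strand, 134 bases before the start in *Gclm* (chr3:122245307-122245556, plus strand) and 57 bases before it in *G6pdx* (chrX:74428881-74429130, minus strand). The *Nqo1* stretch (chr8:107403206-107403455, minus strand) holds no such letters, which says nothing about elements outside it.
*Gclm*: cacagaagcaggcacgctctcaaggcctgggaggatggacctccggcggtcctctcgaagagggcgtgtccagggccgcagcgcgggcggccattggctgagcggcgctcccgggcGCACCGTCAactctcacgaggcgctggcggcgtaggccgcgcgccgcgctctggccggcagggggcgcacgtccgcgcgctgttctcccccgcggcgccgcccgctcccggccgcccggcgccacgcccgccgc
*G6pdx*: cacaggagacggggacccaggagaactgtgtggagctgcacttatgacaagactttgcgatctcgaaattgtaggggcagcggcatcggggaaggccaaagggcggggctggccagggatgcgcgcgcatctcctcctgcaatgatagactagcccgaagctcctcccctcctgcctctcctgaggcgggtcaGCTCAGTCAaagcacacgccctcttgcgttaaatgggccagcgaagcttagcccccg
*Nqo1*: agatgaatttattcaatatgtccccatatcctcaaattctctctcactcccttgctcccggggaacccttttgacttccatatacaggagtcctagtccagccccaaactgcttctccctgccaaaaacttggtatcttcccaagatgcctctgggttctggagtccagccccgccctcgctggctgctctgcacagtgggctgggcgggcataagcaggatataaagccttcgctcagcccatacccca

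Per unit of transcript length, the members spanned a wide range. Mean levels over the 9 tumors in the deposited TPM, with the SD over tumors, were 157 ± 26.6 for *G6pdx*, 136 ± 19.5 for *Nfe2l2* and 125 ± 18.1 for *Txnrd1*. *Hmox1* followed at 76.2 ± 15.4 TPM, *Gclm* at 48.9 ± 6.05, *Keap1* at 42.2 ± 3.67, *Srxn1* at 33.0 ± 3.72, *Gclc* at 30.3 ± 10.9 and *Slc7a11* at 14.7 ± 3.55. *Nqo1* was last at 1.33 ± 0.685 TPM, 11.1 times below *Slc7a11*. The order was not strict everywhere: *G6pdx* was above *Nfe2l2* in 8 of 9 tumors, and *Nfe2l2* was above *Txnrd1*, *Gclm* above *Keap1* and *Srxn1* above *Gclc* in 7 of 9 each. The other neighbours kept their order in 9 of 9 tumors. *G6pdx* was higher than 94.3% of the genes in the table, while *Nqo1* was higher than 30.8%.

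**Figure D1:**
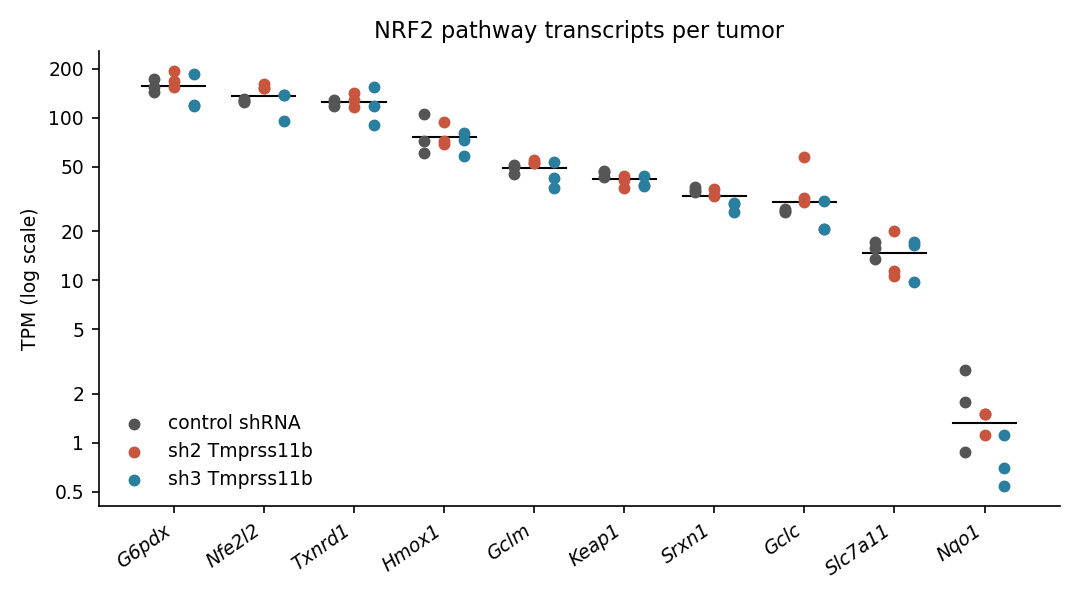
Level of each gene in TPM (log axis) in each of the 9 tumors, with genes ordered by their mean. Points are tumors, coloured by shRNA, and the black line is the mean over 9 tumors; *Nqo1* lies between 0.545 and 2.80 TPM, below every value of the other members.

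*Nfe2l2* (chr2:75675513-75704663) encodes NRF2 itself. Its transcript was at 138, 132 and 127 CPM in control tumors 1 to 3, at 156, 181 and 164 CPM in the sh2 tumors and at 101, 185 and 163 CPM in the sh3 tumors. All sh2 tumors were above all controls, whereas sh3 tumor 1 was the lowest of the 9 and the other sh3 tumors were above the controls. The means were 132 ± 5.24, 167 ± 12.8 and 150 ± 43.7 CPM (SD, n = 3 each). Against the control the log2 fold change was 0.34 with sh2 (standard error 0.20, FDR = 0.999, edgeR) and 0.18 with sh3 (standard error 0.20, FDR = 0.887, edgeR). The sh3 value rested on single tumors: it was 0.40 without sh3 tumor 1 and −0.0045 without sh3 tumor 2.

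*Keap1* (chr9:21229730-21239332) encodes the inhibitor. Levels were 90.7, 82.7 and 83.8 CPM in the controls, 81.2, 75.1 and 80.7 CPM with sh2 and 72.6, 93.2 and 93.6 CPM with sh3. The 3 sh2 tumors were just below the controls, and the sh3 tumors spread to both sides of them. The log2 fold change was −0.12 (95% interval −0.41 to 0.17) with sh2 and 0.01 (−0.28 to 0.30) with sh3. *Keap1* varied little, and 5.98% of the genes tested had a lower biological coefficient of variation (BCV, the relative spread between tumors beyond counting error).

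The rate-limiting step of glutathione synthesis is carried out by glutamate-cysteine ligase, with the catalytic subunit *Gclc* (chr9:77754535-77794489) and the modifier subunit *Gclm* (chr3:122245487-122267215). *Gclc* was at 39.4, 38.6 and 38.1 CPM in the controls, at 45.8, 89.6 and 44.9 CPM with sh2 and at 30.2, 38.5 and 49.9 CPM with sh3. Control tumors hardly differed, all sh2 tumors were higher, and sh2 tumor 2 stood far above the other 8. The log2 fold change with sh2 was 0.64 (95% interval −0.0035 to 1.27, unadjusted P = 0.051, FDR = 0.999, edgeR) and fell to 0.24 without sh2 tumor 2. With sh3 it was 0.03 (−0.61 to 0.67). Sh2 tumor 2 also had the highest sum of the 5 epithelial marker transcripts, 7223 CPM against 3085 to 5611 CPM in the other tumors, and their part in the *Gclc* level was not tested.

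*Gclm* was at 40.0, 44.2 and 43.0 CPM in the controls, at 47.4, 50.0 and 47.4 CPM with sh2 and at 37.5, 41.5 and 52.7 CPM with sh3. Its sh2 tumors were again all above the controls, by less than for *Gclc*, while sh3 tumors held both the lowest and the highest level. The means were 42.4 ± 2.16, 48.3 ± 1.47 and 43.9 ± 7.90 CPM (SD, n = 3 each), and the log2 fold changes were 0.19 (95% interval −0.14 to 0.51) with sh2 and 0.05 (−0.27 to 0.37) with sh3.

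*Slc7a11*, the subunit of the xCT antiporter that brings in cystine for glutathione, had 53.8, 68.0 and 58.8 CPM in the controls. The sh2 tumors had 77.5, 44.5 and 45.4 CPM and the sh3 tumors 67.2, 48.8 and 73.0 CPM. Within each shRNA some tumors lay above and some below the control range, and the log2 fold changes were −0.11 (95% interval −0.66 to 0.44) and 0.07 (−0.48 to 0.61).

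In the thioredoxin system, *Txnrd1* encodes the cytosolic thioredoxin reductase and *Srxn1* the sulfiredoxin that repairs overoxidized peroxiredoxins. *Txnrd1* was at 203, 221 and 205 CPM in the controls, 214, 262 and 203 CPM with sh2 and 265, 197 and 225 CPM with sh3. *Srxn1* was at 45.0, 42.8 and 39.8 CPM in the controls, 38.5, 46.9 and 40.7 CPM with sh2 and 35.9, 39.8 and 39.7 CPM with sh3. Neither gene separated the groups on this scale. The 95% intervals were among the narrowest of the set: for *Txnrd1* −0.23 to 0.45 with sh2 and −0.21 to 0.47 with sh3, and for *Srxn1* −0.30 to 0.26 and −0.43 to 0.14.

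*G6pdx* encodes glucose-6-phosphate dehydrogenase, the first enzyme of the oxidative pentose phosphate pathway and a source of NADPH. Its levels were 195, 172 and 152 CPM in the controls, 168, 230 and 192 CPM with sh2 and 133, 168 and 233 CPM with sh3. The sh3 tumors alone covered the whole range of the 9 tumors. The log2 fold changes were 0.18 (95% interval −0.30 to 0.67) with sh2, or 0.0618 without sh2 tumor 2, and 0.04 (−0.45 to 0.53) with sh3.

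*Nqo1* (chr8:107388225-107403205) encodes the NAD(P)H quinone dehydrogenase. Its raw counts were 28, 14 and 43 in the controls, 23, 22 and 18 with sh2 and 16, 9 and 12 with sh3, equal to 1.19, 0.58 and 1.76 CPM, 0.97, 1.06 and 0.75 CPM, and 0.74, 0.46 and 0.51 CPM. All values were above the floor but rested on few reads, and the controls spread over the whole range of the sh2 tumors. All sh3 tumors were just below all sh2 tumors, while control tumor 2 was below 1 sh3 tumor. With sh3 the log2 fold change was −1.04 (standard error 0.47, 95% interval −2.10 to 0.02, unadjusted P = 0.0544, FDR = 0.759, edgeR), and with sh2 it was −0.34 (standard error 0.46, FDR = 0.999, edgeR). Control tumor 3, the highest, weighed on both: without it they were −0.64 and 0.07. The 3 skeletal muscle markers summed to 2102 CPM in control tumor 3, 9.23 CPM in control tumor 2 and 234 CPM in control tumor 1, so that they ranked the controls as *Nqo1* did. They ranged from 0.876 to 67.9 CPM with sh2 and from 53.0 to 687 CPM with sh3, and their part in the *Nqo1* level was not tested.

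*Hmox1*, the inducible heme oxygenase, is also a gene of macrophages that take up heme. It was at 71.6, 41.0 and 45.7 CPM in the controls, 47.3, 49.8 and 64.6 CPM with sh2 and 49.0, 68.3 and 43.6 CPM with sh3. The 3 groups covered nearly the same range, with 1 high tumor in each, and the log2 fold changes were 0.03 (95% interval −0.54 to 0.60) and 0.02 (−0.55 to 0.59). The 5 macrophage markers found, of 6, summed to 1288 to 1408 CPM in the controls, 813 to 1266 CPM with sh2, and 570, 2505 and 1546 CPM in sh3 tumors 1 to 3. In sh3 tumor 2 both *Hmox1* and these markers were the highest of the group. Sh3 tumor 1 had a lower marker sum than sh3 tumor 3 but more *Hmox1*. The part of these markers in the *Hmox1* level was not tested.

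**Figure D2:**
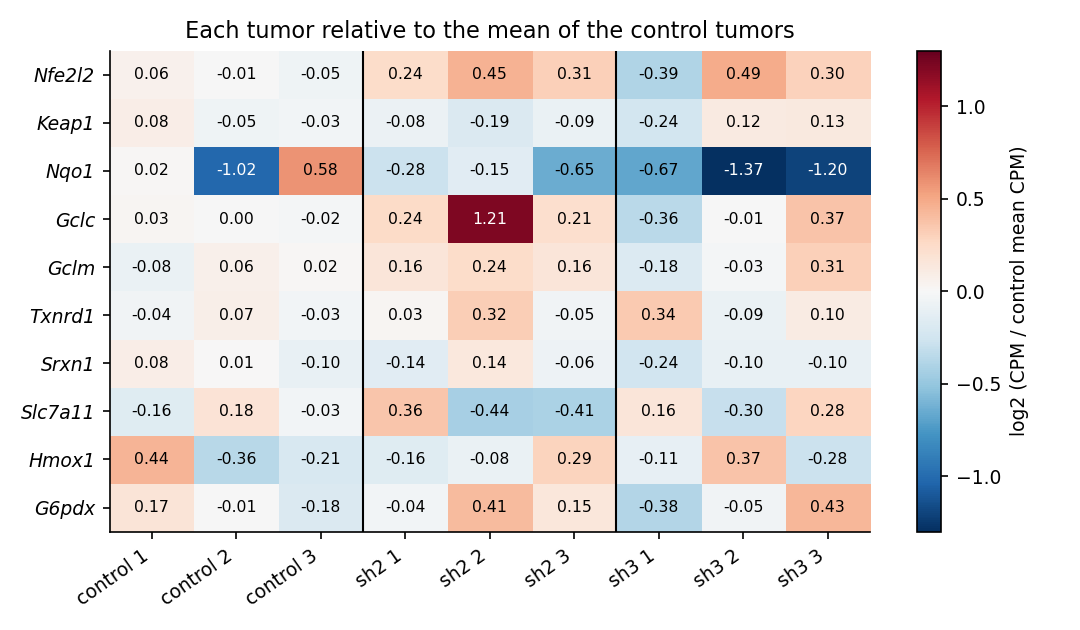
Log2 ratio of the TMM-scaled CPM in each tumor (columns) to the mean of the 3 control tumors, for each gene (rows), with red for higher and blue for lower. The *Gclc* value of sh2 tumor 2, 1.21, and the *Nqo1* values of sh3 tumors 2 and 3, −1.37 and −1.20, are the farthest from 0; control tumor 2 is also low for *Nqo1*, at −1.02.

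The comparisons were tested with edgeR's quasi-likelihood test over 14725 genes, with the Benjamini-Hochberg FDR. At an FDR under 0.05, 0 of the 10 genes were called with sh2, 0 with sh3, 0 for the mean of both shRNAs and 0 between sh3 and sh2, where the share of all genes called was 0.0% in each comparison. No member reached an unadjusted P under 0.05 in any of them, against 3.52%, 6.63%, 4.09% and 7.18% of all genes tested in the same order. DESeq2 and edgeR's likelihood ratio test also called 0 of the 10. A P that misses the threshold does not show that the groups were alike, and the intervals give the range of change that the data allow. Leaving aside *Nqo1*, the 95% intervals of the other 9 members for the mean of both shRNAs ran from −0.50 to 0.89, which is 0.709 to 1.86 times the control. For these 9 they ran from −0.66 to 1.27 with sh2 alone (0.634 to 2.42 times) and from −0.61 to 0.67 with sh3 alone (0.657 to 1.59 times). Between sh3 and sh2 they ran from −1.24 to 0.72 (0.423 to 1.65 times). For *Nqo1* the interval for the mean of both shRNAs ran from −1.57 to 0.19.

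With sh2, 3 members (*Nfe2l2*, *Gclc* and *Gclm*) had all tumors above all controls, where 5.56% of all genes did, and 1 (*Keap1*) had all tumors below them, where 5.83% did. In exact permutation tests, two-sided, each of these 4 gave P = 0.1, the smallest that 3 tumors against 3 allow. With sh3 the numbers were 0 above and 0 below, beside 6.78% and 5.44% of all genes. For the 6 shRNA tumors together they were again 0 and 0, beside 1.21% and 0.958%. Between the shRNAs no member was higher in all sh3 tumors (5.51% of all genes were), and 1 member, *Nqo1*, was lower in all sh3 tumors (4.62%). The largest other difference between them was that of *Gclc*, −0.60 for sh3 against sh2 (unadjusted P = 0.0614, FDR = 0.673, edgeR), and it was −0.21 without sh2 tumor 2.

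Each of the 9 tumors was then left out in turn, an alternative chosen after the values had been seen. Leaving out a tumor cannot undo a complete separation of groups, so these counts could only stay or rise. They show which overlaps rested on a single tumor, not how firm the separations were. With sh2 the 3 higher members became 4 without control tumor 1 (*Hmox1* was added) and stayed 3 without any other tumor. The 1 lower member became 2 without control tumor 2 (*Nqo1* was added) and without sh2 tumor 1 (*Slc7a11* was added). With sh3, *Nfe2l2* and *Keap1* were above all controls and *Nqo1* below them without sh3 tumor 1, while *Txnrd1* was above and *Srxn1* below without sh3 tumor 2.

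Groups also separate more easily with fewer tumors. The shares of all genes given above therefore do not apply to the counts with 1 tumor left out. Shares for those counts are not given here, so the counts are not a result about the members. Leaving out a control tumor added members as well. *Nqo1* was below the remaining controls in all sh2 and all sh3 tumors without control tumor 2, the low control, and *Srxn1* was below them in all sh3 tumors without control tumor 3. For the 6 shRNA tumors together, *Nfe2l2* was higher in all that remained without sh3 tumor 1 and *Nqo1* lower in all without control tumor 2. Between the shRNAs, the 1 lower member became 4 without sh3 tumor 3 (*Gclc*, *Gclm* and *G6pdx* were added) and 2 without sh2 tumor 1 (*Srxn1* was added), and 1 higher member appeared without sh2 tumor 1 (*Slc7a11*) and without sh3 tumor 1 (*Keap1*).

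Scaling also mattered for sh3. In the deposited TPM the median log2 ratio of all genes tested was −0.15 for sh3 against the control, while it was 0.03 in the TMM-scaled fit. Relative to that shift the members lay near 0, with a median of −0.16 in TPM and 0.04 in the fit. *Srxn1* was then lower in all sh3 tumors than in all controls (29.97, 26.2 and 29.7 against 37.3, 35.7 and 34.9 TPM), as were 13.5% of all genes. *Keap1* overlapped the controls with sh2 on this scale, where 7.08% of all genes were lower, whereas *Nfe2l2*, *Gclc* and *Gclm* were higher in all sh2 tumors on both scales (3.9% of all genes were higher in TPM). Between the shRNAs, *Nfe2l2* and *Srxn1* were lower in all sh3 than in all sh2 tumors in TPM, beside 9.26% of all genes, and *Nqo1* overlapped by a small margin.

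**Figure D3:**
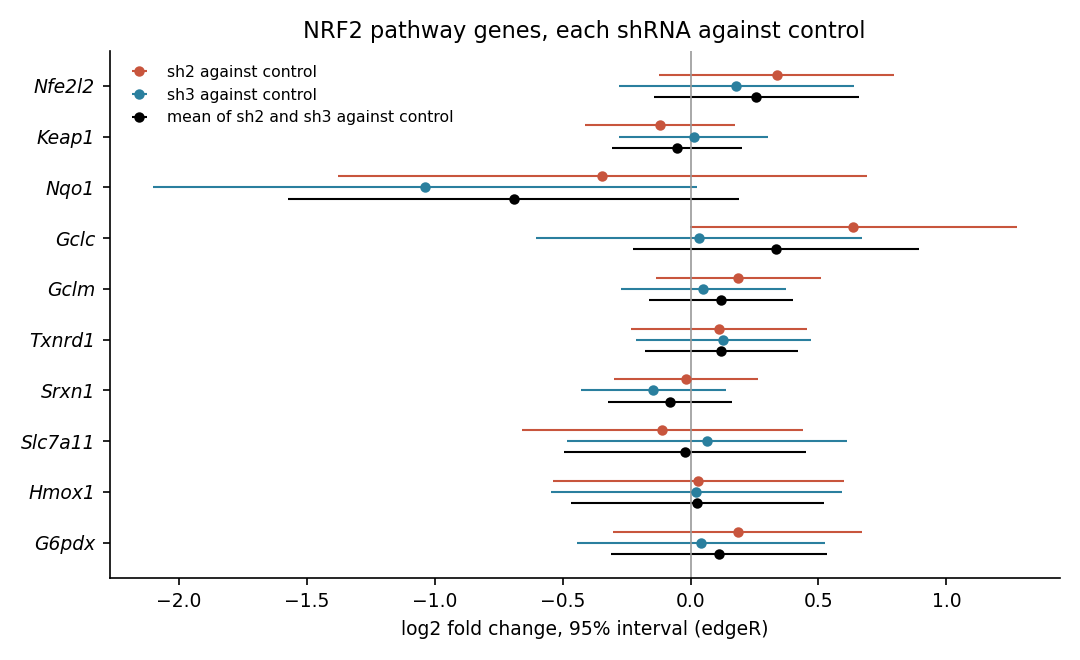
Log2 fold change of each gene (x axis) from edgeR, for sh2, sh3 and the mean of both against the control shRNA. Points are estimates and bars 95% intervals, and all 10 intervals of each comparison span 0, that of *Gclc* with sh2 from −0.0035 to 1.27.

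From tumor to tumor, the members did not move as a block. Sh3 tumor 1 had the lowest level of 6 of the 10 (*Nfe2l2*, *Keap1*, *Gclc*, *Gclm*, *Srxn1* and *G6pdx*) and the highest of *Txnrd1*. It was also the tumor with the lowest sums of the macrophage, squamous, neutrophil and endothelial markers. Its epithelial sum, 3684 CPM, was not the lowest, and the part of these markers was not tested. Sh3 tumor 3 had the highest level of 3 members. Of the 45 pairs of members, 6 had an unadjusted P under 0.05 by exact permutation of r over the 9 tumors, and 0 had an adjusted one. The median Pearson correlation was 0.050, or 0.156 with the group means removed. The strongest was between *Gclc* and *G6pdx*, with r = 0.788 (exact permutation P = 0.00658, adjusted 0.203) and rho = 0.867 (exact permutation P = 0.00451, adjusted 0.137). It was 0.793 within groups, after removal of the group means, and 0.708 without sh2 tumor 2 and sh3 tumor 1, the 2 tumors farthest from the median of *Gclc*. *Gclc* and *Gclm*, the 2 subunits of 1 enzyme, had r = 0.747 (exact permutation P = 0.0124, adjusted 0.203) and rho = 0.850 (exact permutation P = 0.00607, adjusted 0.137), with 0.628 within groups and 0.916 without the same 2 tumors. For *Gclm* and *G6pdx*, whose promoters are shown above, r was 0.784 (exact permutation P = 0.0135, adjusted 0.203) and rho was 0.717 (exact permutation P = 0.0369, adjusted 0.530), and r fell to 0.469 without sh3 tumors 1 and 3, so this relation rested in part on them. It was 0.764 within groups. *Nfe2l2* had r = 0.707 with *G6pdx*, 0.677 with *Gclc* and 0.663 with *Gclm*. Their exact permutation P was 0.033, 0.0516 and 0.0503, and 0.264 for each after adjustment. Without control tumor 3 and sh3 tumor 1 these correlations were 0.261, 0.510 and 0.343. With *Slc7a11* and *Txnrd1*, *Nfe2l2* had r = −0.467 and −0.309 (exact permutation P = 0.205 and 0.413, adjusted 0.709 and 0.798). *Nfe2l2* and *Nqo1* went with r = −0.271 (exact permutation P = 0.481, adjusted 0.833) and rho = −0.333 (exact permutation P = 0.385, adjusted 0.913), and with −0.209 without the 2 tumors farthest from the median of *Nfe2l2* and −0.362 within groups.

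The median BCV of the 10 members was 0.200, beside 0.232 for all genes tested. *Srxn1*, *Gclm* and *Txnrd1* were among the steadier genes, with 6.90%, 14.7% and 15.1% of the genes below them, and *Nqo1* was among the more variable, with 79.9% below it. The 5 genes whose log2 CPM followed *Nqo1* most closely over the 9 tumors, of 14715 compared without the other members and picked for that, were *1700021K19Rik* (r = 0.937, rho = 0.983), *Sema3g* (r = 0.923, rho = 0.817), *Clec16a* (r = 0.916, rho = 0.900), *Ecm2* (r = 0.906, rho = 0.900) and *Clcn1* (r = 0.893, rho = 0.867). These values describe a choice out of all genes on 9 tumors and have no test. *Clcn1*, the skeletal muscle chloride channel, ranged from 0.102 to 3.40 CPM.

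A wider set of 55 genes around the pathway, also chosen with earlier results of these data known, was read from the same fit. Of these, 54 could be tested (*Gsta1* could not). At an FDR under 0.05, 0 of the 54 were called higher and 0 lower in each of the 4 comparisons. Unadjusted P values under 0.05 were found for 2 genes with sh2, 3 with sh3, 1 for both and 4 between the shRNAs, where 3.52%, 6.63%, 4.09% and 7.18% of all genes had one. In the TMM-scaled fit, fold changes above 0 were found for 37 of 54 with sh2 (68.5%, beside 51.8% of all genes), 38 with sh3 (70.4%, beside 54.9%) and 43 for both (79.6%, beside 54.95%), with median log2 values of 0.09, 0.12 and 0.13 beside 0.01, 0.03 and 0.02 for all genes. In the deposited TPM the numbers above 0 were 35 with sh2 (64.8%, beside 41.6% of all genes), 21 with sh3 (38.9%, beside 27.8%) and 30 for both (55.6%, beside 32.9%). The number above 0 with sh3 thus depended on the scale.

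Among 10 partners and regulators of NRF2, such as the small MAF genes, *Bach1*, *Cul3* and *Sqstm1*, the median log2 fold change was 0.09 with sh2 and 0.11 with sh3, and *Sqstm1*, the autophagy receptor p62 that can sequester KEAP1, was the most abundant at 506 TPM. Its log2 fold changes were 0.23 and 0.32. The 10 glutathione enzymes tested had medians of 0.09 and 0.14, with the microsomal glutathione transferase *Mgst1* highest at 345 TPM. Genes of the glutathione transferase families share sequence, and reads can be divided wrongly between them.

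The 7 thioredoxin, peroxiredoxin and other antioxidant enzymes had a median of 0.0007 with sh2 and 0.28 with sh3. Their most abundant gene, the peroxiredoxin *Prdx1*, was at 687, 722 and 541 CPM in the controls, 589, 601 and 630 CPM with sh2 and 616, 1352 and 799 CPM with sh3, so that sh3 tumor 2 held the high value. The 5 genes of NADPH supply had medians of 0.14 and −0.04, and the transketolase gene *Tkt* averaged 211 TPM. The 6 iron and heme genes had medians of 0.05 and 0.24. *Fth1*, the ferritin heavy chain and the most abundant of all at 2508 TPM, ranged from 984 CPM in sh3 tumor 1 to 2698 CPM in sh3 tumor 2, the tumors with the lowest and the highest macrophage sums. Ferritin genes have many processed copies, so their counts are uncertain.

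The 9 detoxification enzymes and exporters had medians of 0.04 with sh2 and −0.10 with sh3, and the epoxide hydrolase *Ephx1* was the most abundant at 231 TPM. *Abcc3*, an exporter of organic anions and glucuronides, was at 57.6, 43.3 and 47.3 CPM in the controls, 69.2, 93.4 and 95.9 CPM with sh2 and 18.4, 50.2 and 46.5 CPM with sh3. *Abcc4*, an exporter of cyclic nucleotides and other anions, was at 49.9, 44.2 and 56.7 CPM, 67.8, 65.0 and 77.2 CPM, and 47.2, 41.6 and 52.3 CPM in the same order. In both, all sh2 tumors were above all other tumors, in CPM and in TPM. In CPM 5.56% of all genes were higher with sh2 than in the controls and 4.62% lower with sh3 than with sh2. In TPM these shares were 3.9% and 9.26%. The log2 fold changes of *Abcc3* and *Abcc4* for sh3 against sh2 were −1.17 and −0.57 (unadjusted P = 0.00668 and 0.00322, FDR = 0.673 for each, edgeR). Neither gene passed the threshold. *Aldh3a1* and *Gsta4*, named after their values were seen, varied most among the wider genes above 10 CPM in any tumor. *Aldh3a1* ran from 1.90 to 77.6 CPM and *Gsta4* from 4.12 to 107 CPM, both lowest in sh3 tumor 1. *Aldh3a1* had log2 fold changes of −1.42 with sh2 and −1.33 with sh3 (FDR = 0.999 and 0.779, edgeR). In CPM all its sh2 tumors were below all controls, as were 5.83% of all genes, and its sh3 tumors overlapped them. In TPM all its sh2 and all its sh3 tumors were below all controls, where 7.08% and 13.5% of all genes were. *Gsta4* overlapped the controls with each shRNA.

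The last group holds 7 genes of the ATF4 pathway, which answers amino acid shortage and, like NRF2, controls *Slc7a11*. In the fit all 7 had fold changes above 0 with each shRNA, where 51.8% of all genes did with sh2 and 54.9% with sh3, with medians of 0.20 and 0.35, and none passed the threshold. In TPM the 7 remained above 0 with sh2 and 6 did with sh3, where *Slc3a2* was at −0.0612 and *Sesn2* at 0.0054, beside 41.6% and 27.8% of all genes. *Atf4* itself averaged 441 TPM and had log2 fold changes of 0.18 and 0.33. *Chac1*, which degrades glutathione, was at 15.9, 14.5 and 16.3 CPM in the controls, 16.6, 15.8 and 16.6 CPM with sh2 and 28.6, 17.4 and 19.9 CPM with sh3. In CPM all its sh3 tumors were above all other tumors (0.50 against the control, unadjusted P = 0.0314, FDR = 0.753, edgeR), where 6.78% of all genes were higher with sh3 than in the controls and 5.51% higher than with sh2. In TPM they overlapped, since *Chac1* was at 42.8, 20.5 and 26.6 TPM with sh3, 23.6, 21.8 and 25.7 TPM in the controls and 25.4, 22.04 and 24.4 TPM with sh2, and sh3 tumor 2 was then the lowest of the 9. The comparisons of the shRNAs share the same 3 control tumors, so that a like sign with both is not independent evidence.

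**Figure D4:**
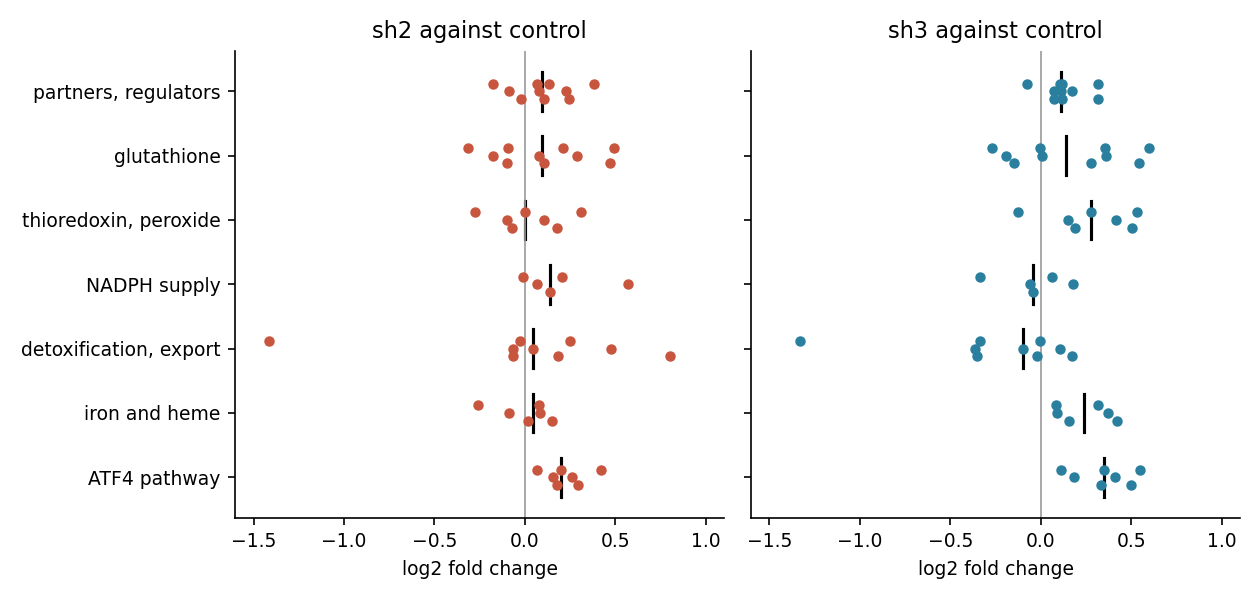
Log2 fold change from edgeR (x axis) of the 54 wider pathway genes tested, for sh2 (left) and sh3 (right) against the control, by gene group (rows). Each point is a gene and the black bar the median of its group; the ATF4 group has all 7 genes above 0 on both sides on this TMM scale (6 of 7 with sh3 in TPM), and the point at the far left is *Aldh3a1*, at −1.42 and −1.33.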

How the data were processed

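Poly(A) RNA of 9 KLN205 tumors, 3 per group, was sequenced from TruSeq stranded libraries. Per the submitters' notes, reads were checked with FastQC, aligned to mm10 with STAR 2.5.3a, counted per gene with featureCounts and compared with edgeR. The strand and multi-mapping settings are not given in the sources used here. The authors deposited raw counts for 19481 genes, the base of all tests here. They also deposited a normalized signal (CPM after TMM), used to check the counts, and TPM values, used for levels per transcript length. The authors' columns of fold changes, likelihood ratios, p-values and FDR were not used.

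Tests used edgeR 4.0.16 under R 4.3.3: filterByExpr by group (14725 genes kept), TMM, 1 coefficient per group over all 9 tumors and robust quasi-likelihood tests, with an FDR under 0.05 over all genes tested. Single members were also compared by two-sided exact permutation of log2 CPM (prior count 2), whose smallest P is 0.1 for 3 tumors against 3. Pairs of members were correlated over the tumors with exact permutation P values, adjusted over 45 pairs. Python 3.11.15 (numpy 2.4.6, pandas 2.3.3, matplotlib 3.10.9) was used for tables and figures. The script was tested on simulated data with 200 changed genes. In a simulated sh2 against control, 41.8%, 71.6% and 87.9% of genes changed by a log2 fold of 1, 2 and 3 were called. So were 8 unchanged genes. The simulated counts were drawn around 1 mean per gene with its fitted spread, without outlying tumors or differences in cell mix. The shares called may therefore be higher than in the tumors, where 0 genes were called with sh2. No pair of libraries agreed within sampling noise. Tumors with the same replicate number did not deviate together. Gene coordinates and promoters are those of RefSeq on GRCm38.p6, the assembly of mm10.

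Alternatives were DESeq2 size factors, DESeq2 1.42.0, the edgeR likelihood ratio test, no filter, a minimum of 10 counts per tumor, fits of the compared groups alone, a replicate block, a prior count of 0.5 and each tumor left out. The members and gene lists were chosen with earlier results of these data known. From each wider list were named the gene with the highest TPM, genes past the threshold, and genes whose 6 shRNA tumors did not overlap the controls or whose sh2 and sh3 tumors did not overlap. Also named were the 5 genes most like *Nqo1*, and *Aldh3a1* and *Gsta4* outside this rule. *Adgre1*, of the macrophage markers, was not found under that symbol. The other marker lists (neutrophil, T cell, fibroblast, endothelium, red blood cell) were summed per tumor, with the result given under other observations.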

Additional observations from a re-analysis of the deposited data

How the results depend on the processing

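The number of members called was 0 in each of the 4 comparisons under every alternative, and the lowest FDR of a member under any of them was 0.26. Of 626 member log2 fold changes under alternatives, 582 kept their sign and side of the threshold and 44 changed sign, 43 of them when 1 tumor was left out. The exception was *Keap1* for sh3 against the control, −0.0033 when the third group was left out. With 1 tumor left out in turn, the following log2 fold changes took both signs. With sh2 these were *Nqo1* (−0.66 to 0.0693), *Txnrd1* (−0.0016 to 0.19), *Srxn1* (−0.10 to 0.0402), *Slc7a11* (−0.43 to 0.0384) and *Hmox1* (−0.11 to 0.31). With sh3 they were *Nfe2l2* (−0.0045 to 0.40), *Keap1* (−0.0721 to 0.12), *Gclc* (−0.19 to 0.19), *Gclm* (−0.12 to 0.15), *Slc7a11* (−0.0739 to 0.22), *Hmox1* (−0.19 to 0.29) and *G6pdx* (−0.22 to 0.21). For both shRNAs they were *Keap1* (−0.0933 to 0.0032), *Slc7a11* (−0.18 to 0.0782), *Hmox1* (−0.13 to 0.30) and *G6pdx* (−0.019 to 0.20). Between sh3 and sh2 they were *Nfe2l2* (−0.34 to 0.0589), *Txnrd1* (−0.10 to 0.12), *Hmox1* (−0.22 to 0.12) and *G6pdx* (−0.41 to 0.0278). Others kept their sign but moved by over 1.5 times, among them with sh2 *Gclc* (0.24 to 0.81), *G6pdx* (0.0618 to 0.28), *Gclm* (0.15 to 0.23) and *Keap1* (−0.14 to −0.075), and with sh3 *Nqo1* (−1.37 to −0.64), *Txnrd1* (0.0113 to 0.23) and *Srxn1* (−0.20 to −0.0961). Over all genes, 0 were called by the quasi-likelihood test, 2, 41, 9 and 48 by DESeq2 with sh2, with sh3, for both and between the shRNAs, and 0, 8, 8 and 14 by the likelihood ratio test. The cause was not tested. *Nqo1* could not be tested with at least 10 counts in every tumor.

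Same-numbered tumors had a mean correlation of −0.0992 over 9 pairs, against 0.0519 over the 18 other pairs, so the numbers were not taken as pairs. With the replicate block, 0 members and 0 genes were called in each comparison, and *Gclc* with sh2 was at 0.58 and *Nqo1* for both shRNAs at −0.63. Depth limits *Nqo1* most, with 9 to 43 counts per tumor.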

Other observations

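Sums of the other marker lists over their genes, in CPM, differed between the tumors as follows. The 4 fibroblast markers summed to 2167 to 3738 in the controls, 1712 to 2726 with sh2 and 985 to 1468 with sh3. The 4 T cell markers summed to 50.6 to 61.7, 17.6 to 63.6 and 34.5 to 100.7 in the same order, the 4 neutrophil markers to 86.2 to 173, 97.9 to 181 and 53.6 to 155, and the 3 endothelial markers to 177 to 211, 154 to 187 and 120 to 186. The 5 red blood cell markers summed to 19.5 to 44.9, 10.1 to 58.8 and 7.91 to 15.2, where *Hba-a1* and *Hba-a2* are near-identical copies. The 6 squamous markers summed to 216 to 720, 221 to 248 and 78.8 to 407. No list had a gene at 0 in all tumors.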
